A study of Mus musculus with 1 sample.

Results

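A group of 10 genes of the contractile apparatus of smooth muscle was followed across the cell classes of the mouse pancreas at the age of 2 weeks. The genes were *Acta2*, *Actg2*, *Myh11*, *Myl9*, *Tpm1*, *Tpm2*, *Lmod1*, *Tagln*, *Cnn1* and *Des*, chosen by symbol as 10 of the 32285 genes listed in the data. The data were 1 single-cell RNA sequencing library, for which pancreata of 5 to 6 mice with the floxed allele *Scap f/f* were pooled. The label calls this library wildtype, and in the study such mice are the controls without the *Pdx1-Cre* driver. Cells of *Scap Δpanc* mice were not analysed here, and with 1 library of pooled animals the values describe these cells and give no difference between genotypes or animals. All 10 genes had UMIs in the library and all had their highest level in smooth muscle cells. The share of all genes highest in that class is not given, and shares past a 4-fold difference follow below.

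Smooth muscle cells contract when myosin thick filaments pull on actin thin filaments, after calcium and calmodulin have activated the kinase that phosphorylates the myosin regulatory light chain. The thin filaments are lined by tropomyosins and bound by calponin and transgelin, and desmin intermediate filaments join the filament anchors of the cell. In the pancreas such cells surround arteries, larger veins and ducts, whereas pericytes sit on capillaries. Several of these genes, *Acta2* above all, are also used as markers of activated fibroblasts and stellate cells, which is why their level in each class of the tissue is of interest.

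The table held 11789 barcodes, and 10947 of them (92.9%) were kept, those between 800 and 100000 UMIs of which less than 15% were mitochondrial. A UMI (unique molecular identifier) marks 1 captured transcript. Each kept barcode held a median of 2650 UMIs and 1326 genes. A level is the UMI sum of a gene in a class scaled to 1000000 UMIs (CPM), and brackets give its 95% interval from the exact Poisson distribution. These intervals, and those of ratios and shares, cover counting error only, since there is no replicate library. The kit captures 3′ ends and gene length was not divided out, so levels are compared between classes for 1 gene at a time and not between genes.

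Classes were gated on marker genes that did not include the 10 genes. The smooth muscle gate held 85 barcodes (median of 2618 UMIs) and the pericyte gate 47 (median of 1671 UMIs). The 3 fibroblast subsets were named by their markers, with 1036 *Rspo3 Cxcl14*, 708 *Mfap4 Meox2* and 676 *Pi16 Pcolce2* fibroblasts. All 4653 fibroblasts formed the pooled fibroblasts, and the mesothelial gate held 482 barcodes. Barcodes with fibroblast or mesothelial markers that also met the mural marker limits entered neither class. They were put with the 903 barcodes of more than 1 lineage, which together held 991 *Acta2* UMIs (104 CPM). The fibroblast and mesothelial levels are thus those left after this step. A further 180 barcodes carried endothelial and pericyte markers together, with a median of 7121 UMIs, and were kept as a class of their own because they may hold more than 1 cell. All 12 smooth muscle markers and all 9 pericyte markers were highest in their own gate. The summed smooth muscle list stood at 3983 CPM in smooth muscle cells and 661 CPM in pericytes, and 3 of its genes (*Sncg*, *Pln* and *Ldb3*) had no UMI in pericytes. Mural barcodes had been put in the smooth muscle or the pericyte gate by the larger UMI sum of these same marker lists. The order of the marker levels between the mural gates was thus largely fixed in advance and does not test their identity. Which mural barcodes counted as smooth muscle therefore rested on genes of the same cells, though on none of the 10.

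The genes lie on different chromosomes of the mouse build GRCm38, apart from *Tagln*, *Cnn1* and *Tpm1* on chromosome 9 and *Des* and *Lmod1* on chromosome 1. *Acta2* lies at chr19:34241090-34255590 on the minus strand, *Myh11* at chr16:14194535-14291372 on the minus strand and *Myl9* at chr2:156775420-156781658 on the plus strand. *Actg2* lies at chr6:83512905-83536265 on the minus strand, *Tagln* at chr9:45929619-45936058 on the minus strand and *Cnn1* at chr9:22099216-22109630 on the plus strand. *Tpm1* lies at chr9:67022590-67049406 and *Tpm2* at chr4:43514711-43523765, both on the minus strand, and *Des* at chr1:75360329-75368579 and *Lmod1* at chr1:135324807-135368065, both on the plus strand. *Tagln* overlaps *Pcsk7* and *Gm48529*, and *Des* overlaps *Gm15179*, on the opposite strand in each case. Smooth muscle genes are known to be driven by serum response factor, which binds the CArG box, and myocardin is its partner. The CArG box was searched for on both strands, which read alike for this motif, in the RefSeq promoters of GRCm38.p6, 250 bases before to 50 after each gene start. Promoters were at hand for 7 of the 10 genes, all but *Actg2*, *Myh11* and *Tagln*. The exact motif was found in 1 of the 7, *Myl9*, and in 1.63% of all 32851 promoters. With 1 of its 6 inner bases free to be any letter it was found in 2 of the 7, *Myl9* and *Acta2*, and in 9.98% of all promoters. The stretches that hold the matches are shown because they are the known regulatory motif of this gene group, with the matches in capitals. The first is at chr2:156775283-156775394 on the plus strand and the second at chr19:34255378-34255477 on the minus strand.
*Myl9*: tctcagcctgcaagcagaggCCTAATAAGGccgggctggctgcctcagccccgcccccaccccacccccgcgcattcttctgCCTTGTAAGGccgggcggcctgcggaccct
*Acta2*: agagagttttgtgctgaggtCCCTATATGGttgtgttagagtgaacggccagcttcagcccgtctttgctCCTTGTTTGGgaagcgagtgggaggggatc
The match in *Myl9* nearest the 5′ end of its stretch is the exact one, and the others have 1 inner base outside the motif. A match is a description of the letters, and binding was not measured.

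The thin filament actins were highest in smooth muscle cells. *Acta2*, smooth muscle alpha actin, stood at 9188 CPM (8875 to 9509) in smooth muscle cells, 1796 CPM (1544 to 2076) in pericytes and 43.5 CPM in pooled fibroblasts. The smooth muscle level was thus 5.12 times the pericyte level (4.41 to 5.97), and the pericyte level was 41.3 times that of pooled fibroblasts (34.9 to 48.6). The latter ratio moved with the processing, from 12.2 when the barcodes with endothelial and pericyte markers were counted as pericytes to 341 after an ambient profile was subtracted. In the order of classes the intervals of smooth muscle cells, pericytes, the barcodes with endothelial and pericyte markers (451 CPM) and mesothelial cells (139 CPM) did not overlap, whereas those further down did. *Actg2*, the gamma actin typical of visceral smooth muscle, stood at 440 CPM (374 to 515) in smooth muscle cells, and pericytes held 3 UMIs of it, which is 29.6 CPM (6.10 to 86.5). The ratio of 14.9 had an interval of 4.99 to 72.9. *Acta2* and *Actg2* encode near-identical proteins, and Cell Ranger at its default settings does not count reads that match 2 genes equally well.

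**Figure D1:**
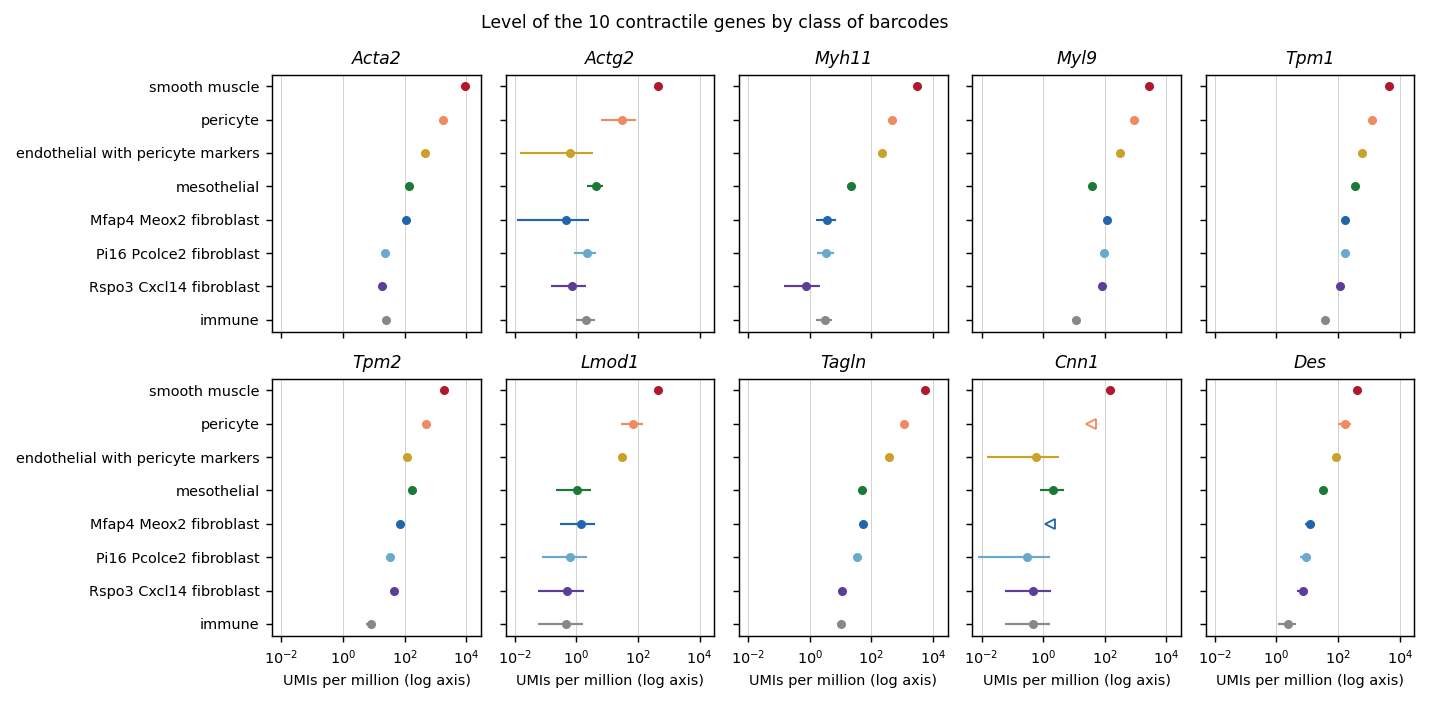
Level of each of the 10 genes in 8 classes of barcodes, in CPM on a log axis, with points for the level, bars for the exact 95% Poisson interval and open triangles for the upper bound where no UMI was counted. In each panel the smooth muscle class lies furthest to the right, from 147 CPM for *Cnn1* to 9188 CPM for *Acta2*, and pericytes come next for every gene but *Cnn1*.

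The motor genes followed the same order. *Myh11*, the smooth muscle myosin heavy chain, stood at 2971 CPM (2794 to 3156) in smooth muscle cells and 483 CPM (358 to 639) in pericytes, a ratio of 6.14 (4.61 to 8.36). In the fibroblast subsets it was low, with 0.729 CPM in *Rspo3 Cxcl14*, 3.72 CPM in *Mfap4 Meox2* and 3.37 CPM in *Pi16 Pcolce2* fibroblasts. Its level was 3.02 CPM in immune cells and 21.5 CPM (16.4 to 27.6) in mesothelial cells. The barcodes with endothelial and pericyte markers stood at 228 CPM (205 to 252). *Myl9*, a regulatory light chain of myosin, stood at 2722 CPM (2553 to 2900) in smooth muscle cells, 927 CPM (749 to 1135) in pericytes and 83.6 to 122 CPM in the 3 fibroblast subsets. The mural and fibroblast levels of *Myl9* were thus closer to each other than those of *Myh11*, with pericytes 9.25 times above pooled fibroblasts (7.43 to 11.4) for *Myl9* and 98.2 times (67.7 to 141) for *Myh11*.

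The tropomyosins, which control the access of myosin to actin, were broader in their expression. *Tpm1* stood at 4519 CPM (4301 to 4746) in smooth muscle cells, 1273 CPM (1063 to 1512) in pericytes and 366 CPM (344 to 389) in mesothelial cells. *Tpm2* stood at 1904 CPM (1763 to 2053), 493 CPM (366 to 650) and 169 CPM (154 to 185) in the same classes. Smooth muscle exceeded pericytes by 3.55-fold (2.97 to 4.28) for *Tpm1* and 3.86-fold (2.89 to 5.25) for *Tpm2*. Both genes also make non-muscle isoforms, which a count per gene does not separate. *Lmod1*, leiomodin, which nucleates actin filaments in muscle, stood at 432 CPM (366 to 506) in smooth muscle cells and 69.1 CPM (27.8 to 142) in pericytes, and at 1.40 CPM or less in the fibroblast subsets, mesothelial cells and immune cells.

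The actin-binding proteins and desmin completed the group. *Tagln*, transgelin (SM22), stood at 5656 CPM (5411 to 5909) in smooth muscle cells and 1144 CPM (946 to 1373) in pericytes, 4.94 times lower (4.10 to 6.01). *Cnn1*, calponin, stood at 147 CPM (110 to 192) in smooth muscle cells, whereas none of the 47 pericytes held a UMI of it. The upper bound for that count of 0 was 36.4 CPM, and the exact interval of the ratio of smooth muscle cells to pericytes began at 3.89. *Des*, desmin, stood at 423 CPM (358 to 497) and 168 CPM (97.7 to 269), and its ratio of 2.52 (1.52 to 4.45) was the lowest of the 10. The interval of the ratio lay above 1 for all 10 genes, and the share of all genes with such an interval is not given. Few pericytes weighed on these ratios, which the intervals do not cover. The 5 pericytes richest in *Tagln* held 59.5% of its UMIs in the class, and the 5 richest in *Myh11* held 59.2%. For the sum of the 10 genes the 5 richest barcodes held 49.3% in pericytes and 25.8% in smooth muscle cells.

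**Figure D2:**
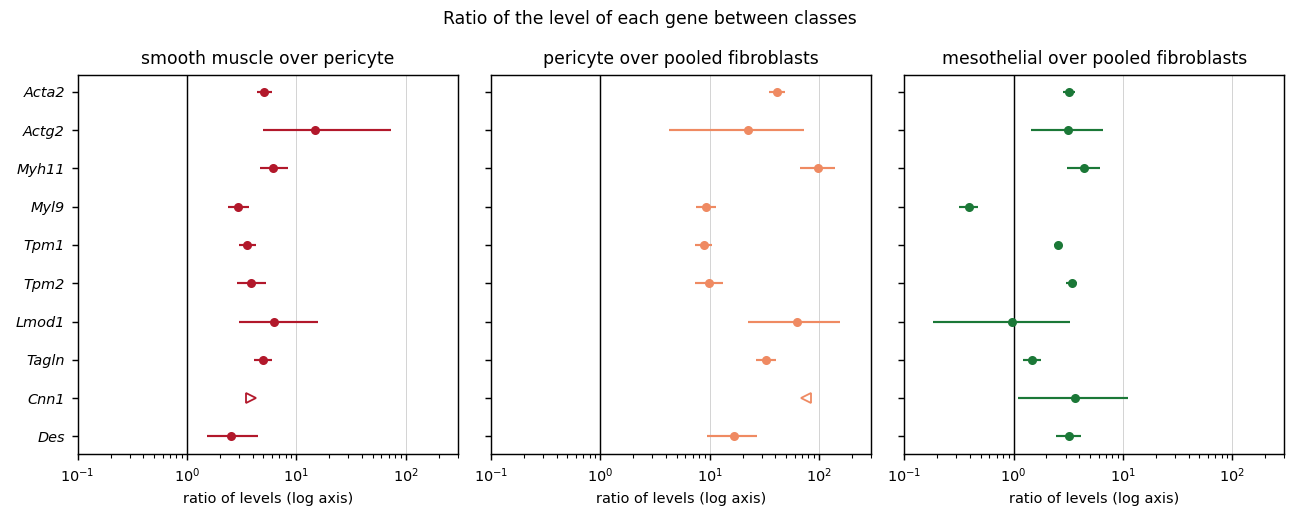
Ratio of the level of each gene between classes on a log axis, with exact 95% intervals and a vertical line at 1. Open triangles are bounds for *Cnn1*, which had no UMI in pericytes. Smooth muscle lies above pericytes for all 10 genes, pericytes lie above pooled fibroblasts for 9, and mesothelial cells lie below pooled fibroblasts for *Myl9* with a ratio of 0.390. The shares of all genes placed likewise are not given.

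The folds of the 10 genes were set beside those of all genes. On a scale of CPM plus 10, and among genes with at least 10 UMIs over both classes, 6 of the 10 genes were at least 4-fold higher in smooth muscle cells, and 2.90% of the 6768 genes compared were. *Myl9*, *Tpm1*, *Tpm2* and *Des* fell short of that fold. The median fold was 5.00 for the 10 genes and 0.958 for all genes compared. Between pericytes and pooled fibroblasts 8 of the 10 were at least 4-fold higher in pericytes, all but *Actg2* and *Cnn1*, and 2.07% of all genes were. The median fold there was 8.48 for the 10 genes and 0.936 for all.

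Single barcodes carried the genes together. Barcodes were thinned to 800 UMIs each, so that depth did not set how many genes were seen and none was lost. A smooth muscle barcode then held a median of 6 of the 10 genes, with a range of 1 to 9, and 82.4% held 5 or more. A pericyte held a median of 2, and 19.1% held 5 or more. The median was 1 in barcodes with endothelial and pericyte markers and 0 in the fibroblast subsets, mesothelial and immune cells. Before thinning, the 10 genes made up a median of 2.52% of the UMIs of a smooth muscle barcode, from 0.171% to 6.37%, and 0.319% of those of a pericyte, from 0 to 2.31%. The ranges of the classes overlapped.

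**Figure D3:**
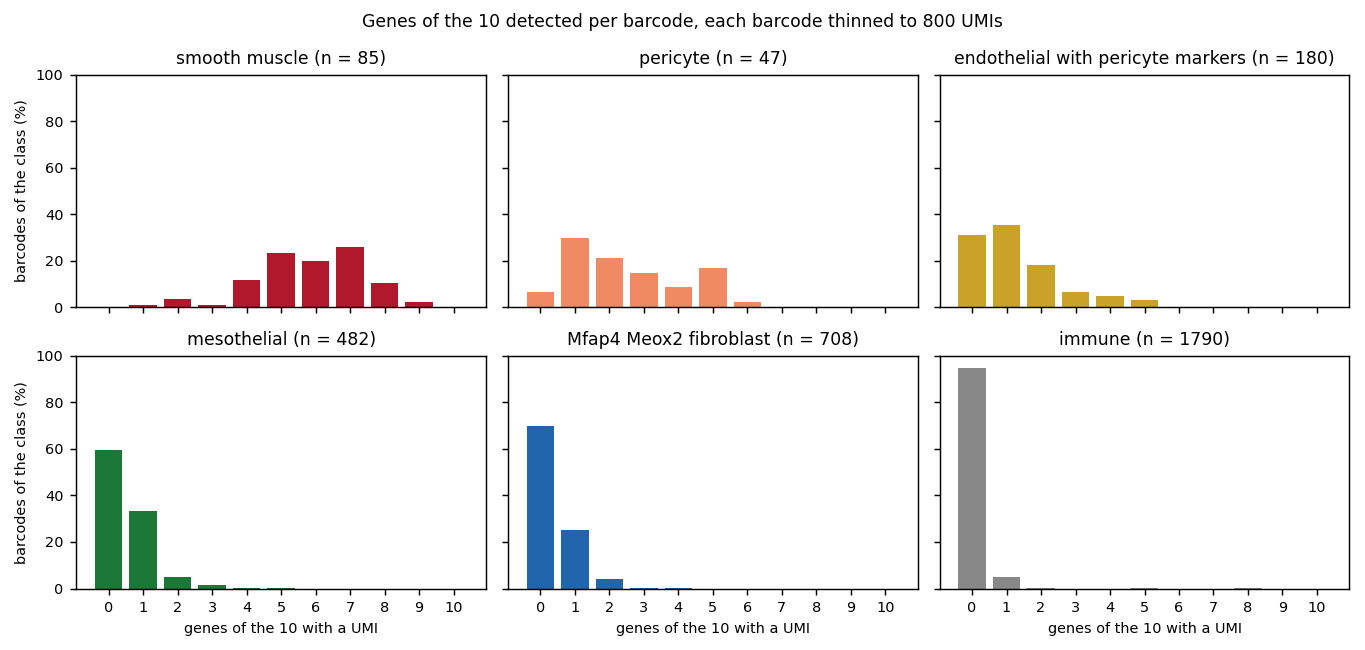
Share of the barcodes of a class, in percent, by the number of the 10 genes with a UMI after each barcode was thinned to 800 UMIs. Smooth muscle barcodes peak at 5 to 7 genes, pericytes spread from 0 to 6, and 94.7% of immune barcodes hold none.

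Smooth muscle barcodes differed among themselves in *Actg2* and *Cnn1*. A UMI of *Actg2* was seen in 38 of the 85 barcodes, and 3 of them held at least 10, whereas *Acta2* was seen in 83 (97.6%). *Cnn1* was seen in 16 of the 38 barcodes with *Actg2* (42.1%) and in 4 of the 47 without it (8.51%). The barcodes with *Actg2* were also deeper, with a median of 4527.5 UMIs against 2070, and the part of depth in this difference was not tested.

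Pericytes were uneven in *Acta2*. Of the 47 barcodes, 16 held no UMI of it and 10 held at least 5, and those 10 held 74.7% of the *Acta2* UMIs of the class. They had a median of 2756.5 UMIs against 1528 for the other 37. The summed smooth muscle markers stood at 677 CPM in the 10 and 654 CPM in the 37, and the summed pericyte markers at 2492 and 3864 CPM. The 10 contractile genes still summed to 3384 CPM in those 37 barcodes, compared with 390 CPM in pooled fibroblasts. In the barcodes with both endothelial and pericyte markers the 10 genes summed to 2165 CPM (2095 to 2237). This was 4.06 times the level of endothelial barcodes that did not meet the mural marker limits (3.66 to 4.52). The summed pericyte markers stood at 1253 CPM in the former and 146 CPM in the latter. In the former *Myh11* was 24.2 times higher (11.6 to 60.7) and *Acta2* 5.25 times (4.07 to 6.89), while *Actg2* and *Cnn1* had 1 UMI each.

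The fibroblast subsets differed in *Acta2* and *Tagln*. *Acta2* stood at 108 CPM (94.99 to 123) in *Mfap4 Meox2* fibroblasts, 23.3 CPM (18.3 to 29.1) in *Pi16 Pcolce2* fibroblasts and 19.0 CPM (14.99 to 23.7) in *Rspo3 Cxcl14* fibroblasts. The first was 5.72 times the last (4.41 to 7.49), and the latter pair overlapped. *Tagln* stood at 52.1 CPM (42.9 to 62.7), 34.3 CPM (28.3 to 41.3) and 11.2 CPM (8.19 to 14.9) in the same order. All of these levels lay below the intervals of both genes in smooth muscle cells and pericytes. None of the 8 genes with at least 10 UMIs was 4-fold higher on the CPM plus 10 scale in any subset over the other 2, all but *Cnn1* and *Lmod1* being compared. Of all genes 0.0293% were in *Rspo3 Cxcl14* fibroblasts, 0.139% in *Mfap4 Meox2* fibroblasts and 0.322% in *Pi16 Pcolce2* fibroblasts.

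Droplets also take up free RNA, so the fibroblast levels were set beside those of immune, epithelial and red blood cells. These cells need not lack every gene, since *Tpm1* and *Tpm2* also make non-muscle isoforms. *Acta2* stood at 24.2 CPM (19.8 to 29.3) in immune cells. This interval held the *Acta2* level of *Pi16 Pcolce2* fibroblasts. The level of 19.0 CPM in *Rspo3 Cxcl14* fibroblasts lay just below it, with overlapping intervals. Whether the *Acta2* UMIs of these 2 subsets were free RNA was not tested. The share of UMIs estimated as ambient ran from 22.7% in mesothelial cells to 27.7% in *Mfap4 Meox2* fibroblasts over the classes compared. No deposited barcode held fewer than 500 UMIs. The 5 immune barcodes richest in *Acta2* held 40.4% of its UMIs in that class, and whether they held more than 1 cell was not tested. A UMI of *Acta2* was seen in 17.9% of *Mfap4 Meox2* fibroblasts (median of 2500 UMIs) and in 3.69% of immune cells (median of 1701.5 UMIs). After thinning the shares were 5.79% (4.19 to 7.77) and 1.34% (0.861 to 1.99). The lower bound was above the immune, epithelial and red blood cell intervals for *Acta2*, *Tagln*, *Myl9*, *Tpm1* and *Tpm2* in *Mfap4 Meox2* fibroblasts, and for *Myl9*, *Tpm1* and *Tpm2* in the other 2 subsets. *Actg2*, *Myh11*, *Cnn1*, *Des* and *Lmod1* did not pass this in any subset. In mesothelial cells 6 genes passed it, *Acta2*, *Myh11*, *Tagln*, *Tpm1*, *Tpm2* and *Des*. The share of all genes that pass is not given for any class. The *Acta2* UMIs of *Mfap4 Meox2* fibroblasts were spread over 127 barcodes, of which 82 held 1 UMI and 11 held at least 5. The shared mural markers were also highest in this subset, at 294 CPM. They stood at 108 CPM in *Rspo3 Cxcl14* and 27.3 CPM in *Pi16 Pcolce2* fibroblasts, and so did not follow *Acta2* between those 2 subsets. Without the 90 *Mfap4 Meox2* barcodes that held 3 or more mural or smooth muscle markers, a choice made after the data had been seen, *Acta2* stood at 83.7 CPM, and at 17.1 CPM in *Rspo3 Cxcl14* fibroblasts treated likewise.

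**Figure D4:**
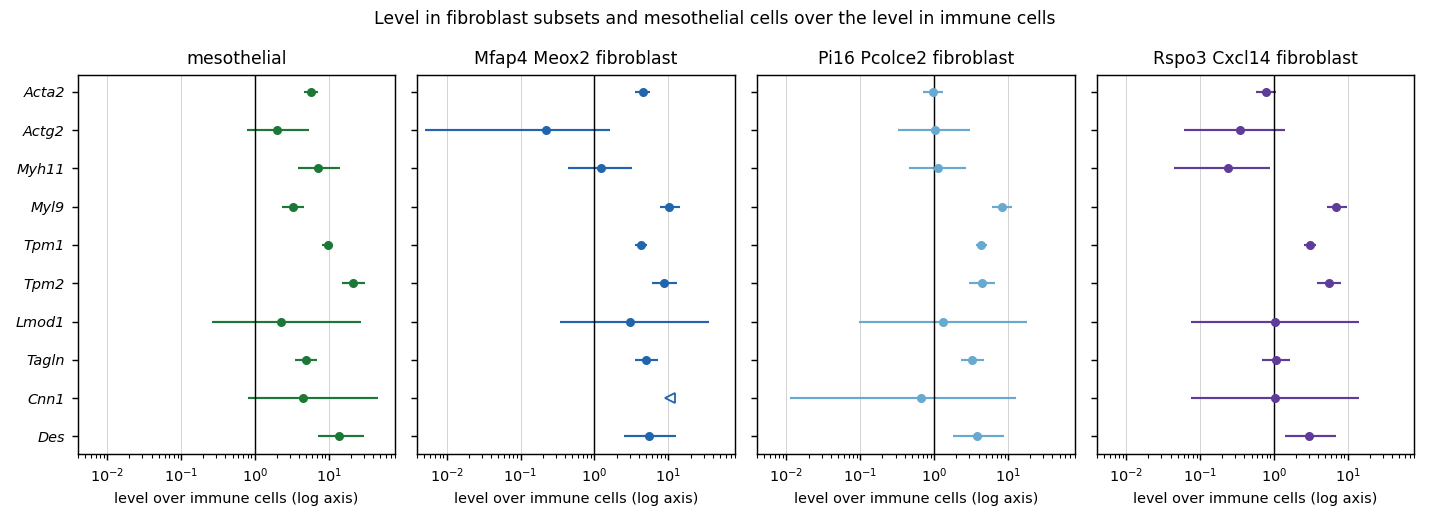
Level of each gene in mesothelial cells and the 3 fibroblast subsets over its level in immune cells, on a log axis with exact 95% intervals, a line at 1 and an open triangle for an upper bound where no UMI was counted. *Acta2* lies at 5.75 in mesothelial cells and 4.49 in *Mfap4 Meox2* fibroblasts, while its intervals hold 1 in the other 2 subsets.

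Mesothelial cells, the lining of the organ surface, carried part of the group. The 10 genes summed to 825 CPM (792 to 860), 2.12 times the level of pooled fibroblasts (2.02 to 2.22). The interval of the ratio lay above 1 for 8 genes, including *Tpm2* at 3.41 (3.05 to 3.82), *Acta2* at 3.20 (2.82 to 3.62), *Des* at 3.20 (2.46 to 4.14) and *Tpm1* at 2.54 (2.36 to 2.73). *Cnn1*, also among the 8, had 6 UMIs in mesothelial cells and an interval of 1.09 to 11.1. The share of all genes with an interval above 1 is not given. *Myl9* went the other way with a ratio of 0.390 (0.319 to 0.472), and *Lmod1*, with 3 UMIs in mesothelial cells, had an interval that held 1. None of the 10 reached 4-fold on the CPM plus 10 scale, on which 1.90% of all genes did, and their median was 1.73 against 1.03. Single barcodes weighed on some of these values. All 12 *Actg2* UMIs of mesothelial cells came from 1 barcode, so its ratio of 3.17 (1.44 to 6.64) rested on that barcode alone. The 5 barcodes richest in *Acta2* held 30.9% of its UMIs and the 5 richest in *Myh11* held 44.3%. Without the 23 mesothelial barcodes with 3 or more mural or smooth muscle markers *Acta2* stood at 114 CPM, *Myh11* at 15.7 CPM and *Actg2* at 0. After thinning *Tpm1* was seen in 22.2% (18.6 to 26.2) and *Acta2* in 7.68% (5.46 to 10.4) of mesothelial barcodes.

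Most of these proteins have relatives used by all cells, and the share of the muscle form within each family was compared between classes. *Tagln* made up 96.8% of the UMIs of *Tagln* and *Tagln2* in smooth muscle cells, 92.1% in pericytes, 14.6% in pooled fibroblasts and 10.8% in mesothelial cells. *Myh11* made up 88.6% of the UMIs of *Myh11* and the non-muscle heavy chains *Myh9* and *Myh10* in smooth muscle cells, 51.6% in pericytes and 2.62% in pooled fibroblasts. *Acta2* and *Actg2* made up 51.5% of the actin UMIs in smooth muscle cells, 19.1% in pericytes and 0.881% in pooled fibroblasts, beside *Actb* and *Actg1*. The non-muscle actins stood at 9061 CPM in smooth muscle cells, 7735 CPM in pericytes, 5045 CPM in pooled fibroblasts and 10810 CPM in immune cells. The shares of smooth muscle cells and pericytes overlapped for *Des* beside *Vim*, at 23.0% (19.8 to 26.4) and 18.5% (11.1 to 27.9), and those of *Lmod1* beside *Tmod3* overlapped in mesothelial cells (1.00%) and pooled fibroblasts (1.01%). In mesothelial cells *Tpm1* and *Tpm2* made up 46.9% of the tropomyosin UMIs, between the 68.1% of pericytes and the 26.2% of pooled fibroblasts. *Myl9* made up 3.75% of their light chain UMIs, below the 15.5% of pooled fibroblasts.

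**Figure D5:**
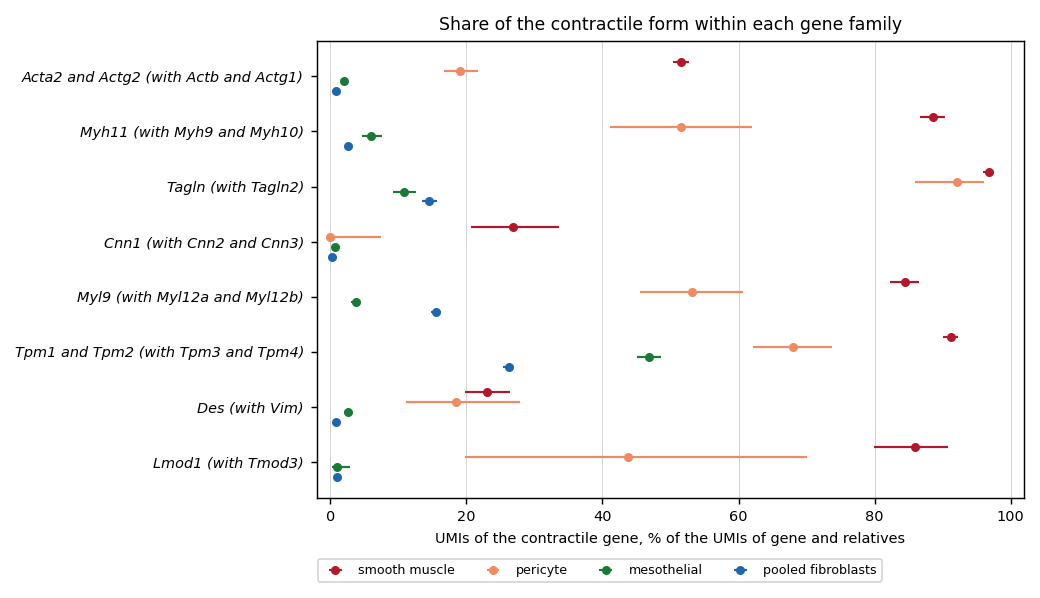
UMIs of each contractile gene as a percentage of the UMIs of the gene and its relatives, which are named in brackets, in 4 classes with exact 95% binomial intervals. Smooth muscle cells have the highest share in every family, from 23.0% for *Des* beside *Vim* to 96.8% for *Tagln*.

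Partners of contraction were compared over smooth muscle cells, pericytes, the 3 fibroblast subsets and mesothelial cells. Of 17 listed genes 15 were highest in smooth muscle cells and 2, *Vcl* and *Itga1*, in pericytes. The share of all genes highest in smooth muscle cells is not given beside this count or the like counts below. The count goes by level alone. *Tns1*, 1 of the 15, stood at 265 CPM (214 to 325) in smooth muscle cells and 257 CPM (168 to 376) in pericytes. It stood at 281 CPM in the barcodes with endothelial and pericyte markers. *Synm*, also among the 15, had 12 UMIs in smooth muscle cells, and its interval overlapped that of mesothelial cells. The smooth muscle and pericyte intervals of *Vcl* overlapped too. *Mylk*, the kinase of the light chain, stood at 1653 CPM in smooth muscle cells, 691 CPM in pericytes and 53.2 CPM in pooled fibroblasts. *Cald1*, caldesmon, stood at 2491 CPM (2329 to 2661) in smooth muscle cells and 2032 CPM (1764 to 2330) in pericytes, and the intervals touched. The coactivator *Myocd* stood at 339 CPM in smooth muscle cells and 69.1 CPM in pericytes, 17.5 CPM in the barcodes with endothelial and pericyte markers, and 3.17 CPM or less in the fibroblast subsets, mesothelial and immune cells. *Srf* itself stood at 25.4 CPM in smooth muscle cells and 9.87 CPM in pericytes. The latter is under the 29.6 CPM that 3 UMIs give in pericytes, so no difference is read from it. *Mrtfa* and *Mrtfb*, the other regulators listed, are not described here. *Acta1* and *Actc1*, the actins of striated muscle, had no UMI in either mural class. *Ckm*, *Mylpf*, *Tnnt3* and *Tnnt2*, the other striated genes listed, are not described here.

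Stellate and fibroblast markers were read in the same classes. *Pdgfra*, which was itself among the markers that gated fibroblasts, stood at 11.3 CPM in smooth muscle cells, 39.5 CPM in pericytes and 290 to 550 CPM in the fibroblast subsets. *Pdgfrb* stood at 322 CPM, 888 CPM and 32.2 to 72.6 CPM in the same classes. *Gfap* and *Lrat*, which mark quiescent stellate cells, had no UMI in either mural class, and *Lrat* stood at 1.70 CPM or less in the fibroblast subsets. A count of 0 in pericytes allows up to 36.4 CPM, so those values do not set the classes apart. Of the 9 listed genes 2 were counted as highest in smooth muscle cells and 2 in pericytes, without ties at 0 set apart. *Reln*, *Fap*, *Postn*, *Tnc* and *Cthrc1*, also listed, are not described here.

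Although smooth muscle barcodes were 0.776% of those kept, they held 31.5% of all 32010 UMIs of the 10 genes. The share was 58.6% for *Actg2*, 50.4% for *Myh11*, 49.7% for *Lmod1*, 47.3% for *Cnn1*, 44.9% for *Acta2* and 42.7% for *Tagln*. It was lower for *Tpm2* (22.7%), *Myl9* (21.5%), *Des* (19.3%) and *Tpm1* (17.7%). Barcodes with markers of more than 1 lineage held a further 13.7% of the *Acta2* UMIs and entered no class.

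Over 13 classes, the genes whose level followed the summed level of the 10 most closely were *Wtip*, *Mark1*, *Klhl23*, *Dgkb*, *Map3k20*, *Nexn*, *Rbpms2*, *Ctnna3*, *Ccdc3* and *Hey2*. Pearson's r of log2(CPM + 10) ranged from 0.949 to 0.971 among 12879 genes compared, with classes that share 1 library and its free RNA. *Ctnna3* stood at 3476 CPM in smooth muscle cells, 947 CPM in pericytes and 29.6 CPM in pooled fibroblasts, and *Nexn*, which encodes an actin-binding protein, at 310, 78.9 and 12.9 CPM. The correlation is given as a description of the order of levels.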

How the data were processed

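The authors aligned the reads of 1 droplet library to mm10 with Cell Ranger 7.1.0 at its default parameters, which in this version count intronic reads, and deposited the UMI counts of each barcode as whole numbers that had not been normalized. The 10 genes, marker lists and comparisons were chosen with earlier results of these data known, and the thresholds of the gates were set from marker counts after the files had been read.

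A barcode counted as mural with at least 2 of 7 shared mural markers making up 0.15% of its UMIs, at least 2 smooth muscle or pericyte markers and fibroblast markers under 2.5%. It was smooth muscle or pericyte by the larger UMI sum. Fibroblasts had at least 2.5% fibroblast UMIs and at least 2 of *Pdgfra*, *Dpt* and *Lum*, and their subsets were split by the genes in their names (for *Pi16 Pcolce2*, at least 2 UMIs of these). Mesothelial barcodes had at least 4 of 9 markers. Neither class took barcodes that met the mural marker limits. Immune, endothelial, epithelial, Schwann and red blood cells were gated likewise, and 903 barcodes with markers of more than 1 lineage and 1243 without a gate entered no class. Scrublet called 537 doublets (4.91%), none in either mural gate and 9.13% of the mesothelial one, which were kept in the main values.

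UMIs were summed per class. Ratios have exact conditional binomial and shares exact Clopper-Pearson 95% intervals. No test was made, since there is 1 library. Genes named are the 10, the listed partners, regulators, relatives, striated and stellate genes, and the 10 genes with the highest correlation and at least 100 UMIs. Coordinates are from GENCODE M21, whose identifiers matched those of the files for all 10 genes. Analyses used Python 3.11.15, numpy 2.4.6, scipy 1.17.1, pandas 2.3.3 and scanpy 1.11.5, and the interval and thinning functions were tested on simulated data. The closing section gives the effect of 11 other settings, and of 2 that were added after the data had been seen.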

Additional observations from a re-analysis of the deposited data

Results flagged for a closer look

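The 752 barcodes at or under 800 UMIs, which entered no comparison, held 236 UMIs of the 10 genes. This is 478 CPM (419 to 543). The 6.07 CPM that 3 UMIs would give there is a low bar for a sum of 10 genes, so no excess is read from it. In 5 of these barcodes at least 5 of the 10 genes were seen.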

How the results depend on the processing

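All 10 genes remained highest in smooth muscle cells under each of the 13 other settings tried, 2 of which were added after seeing the data. The summed level of smooth muscle cells over pericytes (4.45) ranged from 4.29 with a lower limit of 1500 UMIs to 4.64 with the mean of per-cell CPM under those of the other 11 that gave a value. It became 11.8, and pericytes over pooled fibroblasts 6.17 in place of 16.4, when the barcodes with endothelial and pericyte markers were joined to the pericytes, 1 of the added settings. Pericytes over pooled fibroblasts became 22.9 after an ambient profile was subtracted, and 18.4 without fibroblast and mesothelial barcodes that held mural markers, the other added one. Mesothelial cells over pooled fibroblasts (2.12) became 1.95 with an upper limit of 10000 UMIs, 1.99 with clusters in place of gates, 2.51 after ambient subtraction and 2.00 with the mean of per-cell CPM. No cluster was named pericyte, so clusters gave no value for pericytes. None of these summed levels changed direction. For single genes, *Actg2* in mesothelial cells over pooled fibroblasts fell from 3.17 to 0 with an upper limit of 10000 UMIs and without barcodes that held mural markers, and *Myh11* in pericytes over pooled fibroblasts (98.2) ranged from 49.3 to 396. Of the 60 levels of single genes in the 6 classes compared, ambient subtraction moved 33 beyond their counting interval, and with it *Acta2* fell to 0 in *Rspo3 Cxcl14* and *Pi16 Pcolce2* fibroblasts and stayed at 92.7 CPM in *Mfap4 Meox2* fibroblasts. *Acta2* in the latter over *Rspo3 Cxcl14* fibroblasts ranged from 3.13 after thinning to 6.06. No paired analysis was possible because there is 1 library. With 47 pericytes and 101355 UMIs in that class, the exact upper bound of a count of 0 there is 36.4 CPM.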
